A study of Homo sapiens with 8 samples.

Results

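DHRS2 and 9 further genes named DHRS, for dehydrogenase/reductase of the short-chain family, were described in RNA of HCT116 cells, a human colorectal cancer line. The 10 genes were matched by symbol to the Ensembl identifiers of the count tables, which list 78932 genes in all. DHRS2 was selected on its measured counts, for the largest decrease among the genes named in an earlier pass over these tables and for a large spread between replicates. Its difference between the groups and its spread are therefore given as a description, with no test. The other 9 were taken for their names. The cells carry a degradation tag on NUDT21, a subunit of the complex CFIm that contacts RNA at UGUA elements ahead of poly(A) sites. The cells of every library were treated with JTE-607, which inhibits CPSF73, the nuclease that cuts pre-mRNA at poly(A) sites. DMSO, a solvent, was added in 4 of the 8 libraries, and dTAGV1, a degrader of tagged proteins, in the other 4. Doses, times and the number of clones are not given in the sources used here, and cells without JTE-607 were not analysed here.

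Short-chain dehydrogenases/reductases fold around a bound NAD(H) or NADP(H) and pass hydride between it and an alcohol or carbonyl group, with a conserved tyrosine and lysine in the active site. Their substrates include retinoids, steroids, fatty acyl chains, sugars and dicarbonyls. DHRS2, also known as HEP27, reduces dicarbonyl compounds, binds the ubiquitin ligase MDM2, and is known to be induced by inhibitors of histone deacetylases. DHRS3 reduces retinal to retinol, DHRS9 oxidises retinol and certain steroids, and DHRS4 reduces retinal and other carbonyls in peroxisomes. DHRS7 reduces retinoids and steroids in the endoplasmic reticulum, DHRS7B acts in ether lipid synthesis, and DHRS11 reduces ketosteroids.

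The promoter of DHRS2 is shown because it differs in base composition from those of most of its relatives. It is the only start of the gene in the RefSeq table and covers 250 bases before to 50 after it, on the plus strand of GRCh38.p14 at chr14:23629865-23630164. Capitals mark a TATAAA match.

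DHRS2 promoter: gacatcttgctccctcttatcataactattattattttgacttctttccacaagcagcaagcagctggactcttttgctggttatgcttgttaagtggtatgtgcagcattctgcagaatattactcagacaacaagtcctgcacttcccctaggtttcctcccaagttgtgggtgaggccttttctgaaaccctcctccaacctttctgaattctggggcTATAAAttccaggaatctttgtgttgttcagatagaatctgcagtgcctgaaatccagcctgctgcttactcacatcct

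This window held 0 CpG dinucleotides and had a GC content of 44.0%, against medians of 14 CpG and 58.7% over 35116 promoters of 300 bases. Only 3.96% of those promoters held as few. The TATAAA match began at position -29 from the start. A TATAAA on either strand was present in 11.5% of promoters, CCAAT in 34.6% and GGGCGG in 45.0%, and the DHRS2 window held neither of the last pair on either strand. RefSeq promoters were found for 9 of the 10 genes, with DHRS7 not among them. The DHRS9 windows were similarly poor in CpG, with 0 to 4 in each of its 4 starts. All but the last of these windows along the chromosome also held a TATAAA on either strand, as did no window of the other relatives. The first listed starts of DHRS1, DHRS3, DHRS4, DHRS7B, DHRS11, DHRS12 and DHRS13 held 31, 31, 20, 22, 36, 34 and 27 CpG. The 9 genes thus fell into a CpG-poor pair, DHRS2 and DHRS9, and 7 with at least 1 CpG-rich start.

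Since libraries of this kind read the last bases of a transcript, the annotated 3′ ends are shown for the 5 DHRS genes with enough counts to be tested. Each line gives 30 bases of the GENCODE 29 transcript around the poly(A) signal nearest its end, the hexamer that the cleavage machinery recognises, in capitals.

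DHRS2, chr14:23645605-23645634, plus strand: tttttttcctaaAATAAActcaaatttatc
DHRS3, chr1:12567916-12567945, minus strand: gcaggaatgaaaAATAAAgagagatggctt
DHRS7, chr14:60144132-60144161, minus strand: cacctattattcATTAAAcacctgttgtat
DHRS7B, chr17:21193229-21193258, plus strand: gcttgggctagcATTAAAgagtgcttaacc
DHRS12, chr13:51768014-51768043, minus strand: cttttatttcaaAATAAAtactaccgaggc

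All 10 genes had a poly(A) signal on the sense strand in the last 50 bases of their longest-reaching transcript, in 6 of them the form AATAAA and in 4 its common variant with T as the second base. Among 12090 tested genes with such a transcript, 74.5% had either form and 60.3% had the first. A TGTA, the DNA form of the element that CFIm binds, occurred in the last 100 bases of 3 of the 10 genes, against 53.1% of tested genes. These were DHRS2 with 1 match, DHRS7 with 2 and DHRS13 with 1. Only 5 of the 10 genes were tested, so the sets compared differ. Among these 5, all had a poly(A) signal, 3 of them AATAAA, and 2 (40%) had a TGTA. From 1 to 5 transcript ends were annotated per gene, and the use of single ends was not measured here.

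Libraries held 8649238 to 9977205 reads, with 3447842 to 4291256 assigned to genes in sense. Levels are given as CPM, counts in each 1000000 after TMM scaling of the libraries. NUDT21 itself was measured at 32.2 ± 2.81 CPM with DMSO and 8.25 ± 2.62 CPM with dTAGV1 (SD, n = 4 each), although the tag targets the protein, whose level is not in these tables. Of 9 epithelial markers, 6 (EPCAM, CDH1, KRT8, KRT18, KRT19 and CDX2) had at least 10 counts in every library. KRT20, VIL1 and CEACAM5 were near 0, and summed CPM of the 9 ran from 1576 to 1831 with DMSO and from 1253 to 1353 with dTAGV1. Of the 6, EPCAM rose, KRT18 and KRT19 fell, with log2 fold changes of 0.28, -0.60 and -0.65, and CDH1, KRT8 and CDX2 did not pass the edgeR test. The part of these differences in the values of the DHRS genes was not tested. Of the other markers, COL1A1 alone had at least 10 counts in every library. The 5 fibroblast markers summed to 11.2 to 19.9 CPM, the 5 immune markers to 0 to 1.37 CPM and the 3 endothelial markers to 0.295 to 2.93 CPM. In bulk RNA, fewer cells with a transcript and less transcript per cell cannot be told apart.

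DHRS2 (ENSG00000100867) is a protein-coding gene on the plus strand of chromosome 14 (GRCh38, 23630115 to 23645639). Replicates 1 to 4 of the DMSO group gave 1562, 3299, 3063 and 2375 counts, and those of the dTAGV1 group gave 86, 171, 201 and 364. On the scale of CPM these were 427, 796, 817 and 587 with DMSO, against 24.4, 51.7, 59.2 and 86.1 with dTAGV1. Every dTAGV1 library lay below every DMSO library. Means were 657 ± 185 CPM in the DMSO group and 55.3 ± 25.4 CPM in the dTAGV1 group (SD, n = 4 each). On the log2 scale the difference was -3.55 ± 0.40 (SE), an 11.7-fold lower level with dTAGV1.

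**Figure D1:**
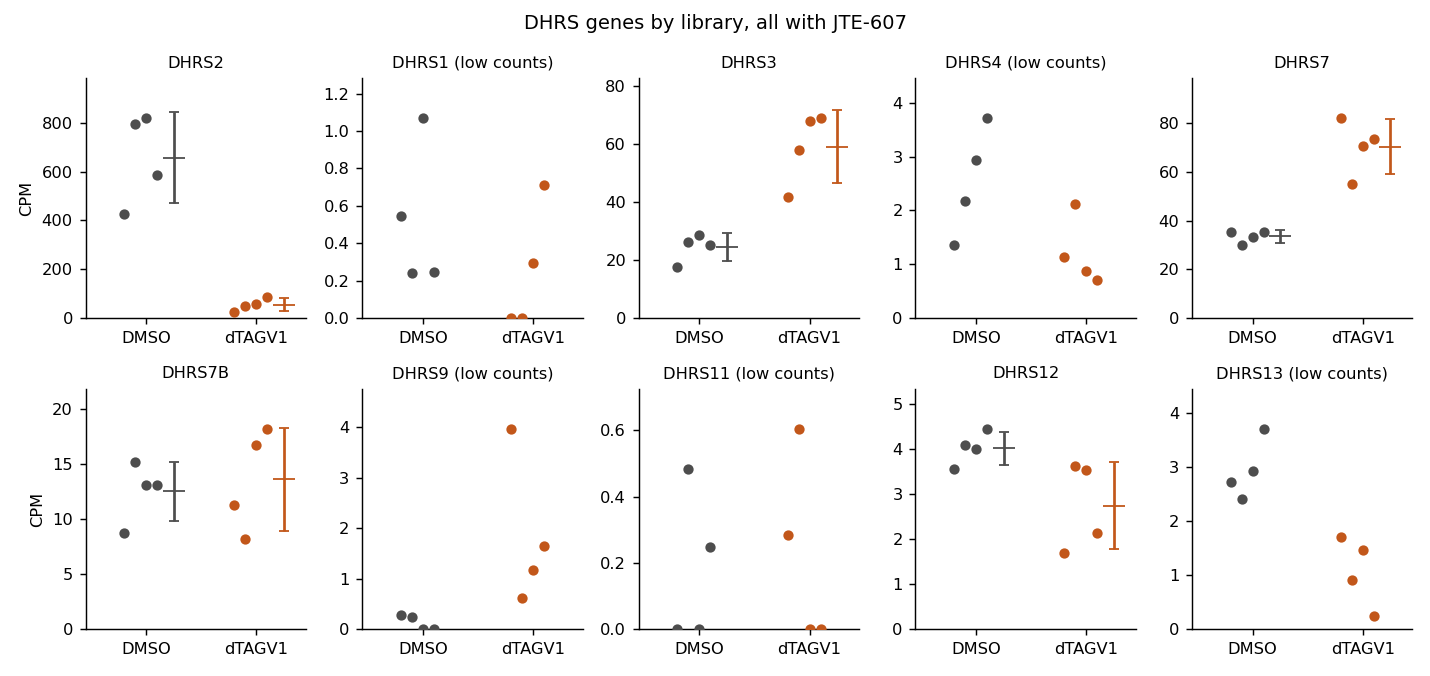
CPM (vertical axes, each from 0) of the 10 DHRS genes in the 4 DMSO and 4 dTAGV1 libraries, all with JTE-607. Points are libraries in replicate order, and bars beside them give the mean ± SD for the 5 tested genes. DHRS2 and DHRS13 were lower, and DHRS3, DHRS7 and DHRS9 higher, in every dTAGV1 library than in every DMSO library. DHRS9 and DHRS13 had low counts. Groups did not overlap in 50.9% of all tested genes.

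None of the words of 31 bases in the last 500 bases of the DHRS2 transcript occurred in a GENCODE 29 transcript of another gene, and no annotated gene overlaps DHRS2. On the opposite strand the locus gave 1 count in DMSO replicate 4 and 0 in the other libraries. Counted irrespective of strand, the log2 fold change was -3.58.

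Replicates of DHRS2 differed more than those of most genes. The highest and lowest DMSO libraries were 1.91-fold apart and the dTAGV1 libraries 3.53-fold apart, with coefficients of variation of 28.2% and 45.9%. The SD of log2 CPM within groups was 0.62, the 9th largest of 9248 genes with a symbol and at least 10 CPM on average, whose median was 0.16. For DHRS7B, DHRS12, DHRS3 and DHRS7 this SD was 0.43, 0.33, 0.32 and 0.19. Of those 9248 genes 98.9%, 94.4%, 93.9% and 64.9% had a smaller one, so a large spread was not particular to DHRS2. The biological coefficient of variation that edgeR estimated was 0.387 for DHRS2, where the trend at its level was 0.0803. In both groups replicate 1 was the lowest library. Library measures moved with the values in the dTAGV1 group, where unmapped reads made up 30.3%, 29.9%, 24.9% and 20.4% of replicates 1 to 4 as DHRS2 went from 24.4 to 86.1 CPM. In the DMSO group unmapped reads were 27.7% to 28.9%, with DHRS2 between 427 and 817 CPM. The part of library composition in the spread of DHRS2 was not tested.

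The genes with the most similar pattern over the 8 libraries were CALM2, CPT1A, HSP90AA1, RBBP8 and PSRC1, with Pearson's r in log2 CPM of 0.998, 0.997, 0.996, 0.995 and 0.995. CALM2 encodes calmodulin, CPT1A imports fatty acyl groups into mitochondria, HSP90AA1 is a chaperone, RBBP8 (CtIP) trims DNA ends for repair, and PSRC1 binds spindle microtubules. These 5 were the highest of 9247 genes compared, and all of them share with DHRS2 a fall between the groups, of -0.79, -0.97, -0.93, -0.46 and -2.25 on the log2 scale. These r values therefore rest largely on the difference for which DHRS2 was selected. After the mean of each group was taken away, the 5 closest genes were MTHFD1, TRIM7, RBKS, CALM2 and ZBTB44 (r = 0.988, 0.984, 0.981, 0.981 and 0.978). RBKS, a ribokinase, is the member of this set that went the other way between groups, from 6.25 ± 1.34 to 15.8 ± 4.58 CPM (SD, n = 4 each). Deviations of these 5 genes were smaller than those of DHRS2, which ran from -1.03 to 0.77 on the log2 scale, while CALM2 ran from -0.19 to 0.13. In all, 116 of the 9247 genes had an r above 0.9 with the deviations of DHRS2 and 67 had an r below -0.9. The 8 deviations sum to 0 within each group, and the genes share libraries and depth, so these values describe the 8 libraries.

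DHRS3 was among those 116 genes, with an r of 0.93, although its difference between the groups had the opposite sign. Its deviations were -0.45 and -0.47 in replicate 1 of the DMSO and dTAGV1 groups, where those of DHRS2 were -0.57 and -1.03. For DHRS7B, DHRS12 and DHRS7 the r with DHRS2 was 0.63, 0.42 and -0.43.

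**Figure D2:**
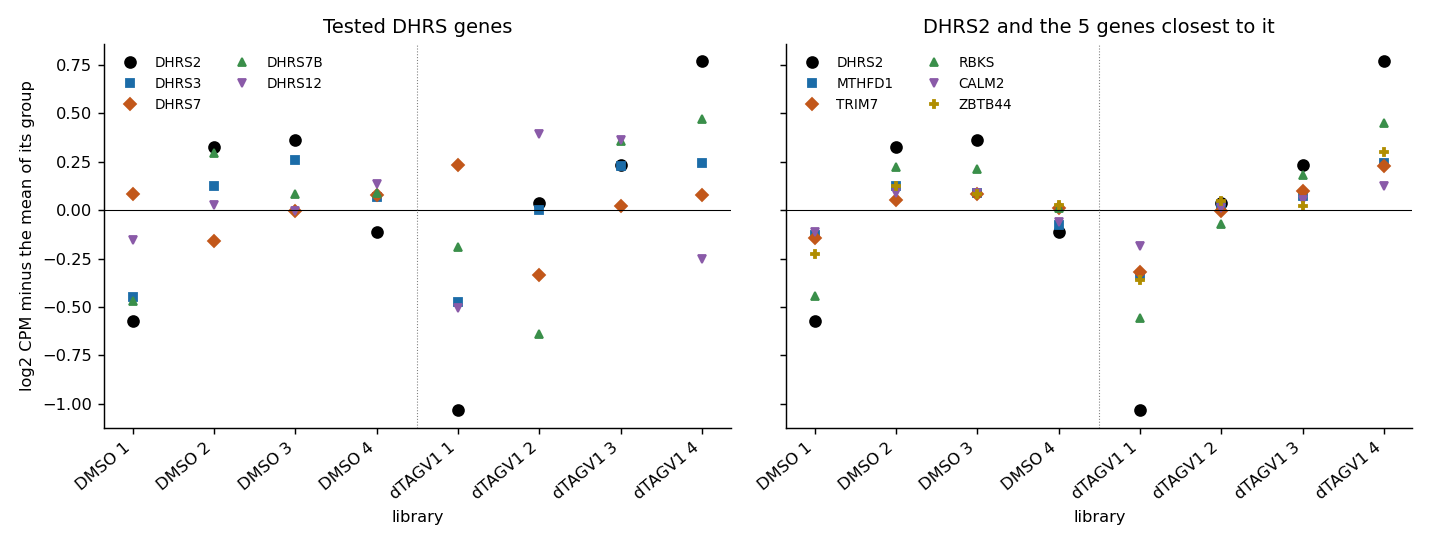
Deviation of log2 CPM from the mean of its group (vertical axis) in each library (horizontal axis), for the 5 tested DHRS genes on the left and for DHRS2 with the 5 genes closest to it on the right. Replicate 1 of both groups lies lowest for DHRS2, at -0.57 and -1.03.

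The remaining 9 genes were read from a fit of all 12618 genes that passed a filter on low counts. With dTAGV1, 57.9% of these genes had an adjusted p under 0.05 in the quasi-likelihood test of edgeR with Benjamini-Hochberg correction, 29.4% being higher with dTAGV1 and 28.5% lower. Only 4 of the 9 passed the filter. DHRS3 and DHRS7 rose, while DHRS7B and DHRS12 did not pass the test. A count of 2 in 4 is close to the share of all genes called.

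DHRS3 (ENSG00000162496, chromosome 1, 12567910 to 12617731, minus strand) returns retinal to retinol and so draws on the precursor of retinoic acid. It was measured at 17.5, 26.3, 28.8 and 25.2 CPM with DMSO, and at 41.7, 58.0, 68.0 and 68.8 CPM with dTAGV1. The lowest dTAGV1 library was above the highest DMSO library, and 50.9% of the genes tested had groups without overlap. Its log2 fold change was 1.27 ± 0.16 (SE) (edgeR, Benjamini-Hochberg adjusted p = 1.66e-06), a 2.42-fold higher level. The only genes that overlap it in GENCODE 29 are a small nuclear RNA pseudogene and a microRNA with 0 counts.

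DHRS7 (ENSG00000100612, chromosome 14, 60144120 to 60169856, minus strand) was measured at 35.5, 29.9, 33.4 and 35.4 CPM with DMSO, and at 81.9, 55.0, 70.7 and 73.6 CPM with dTAGV1. The groups did not overlap. Its log2 fold change was 1.07 ± 0.12 (SE) (edgeR, Benjamini-Hochberg adjusted p = 2.19e-08). The gene lies within PCNX4 on the opposite strand over most of its length, and PCNX4 had a log2 fold change of 0.76. Counts on the opposite strand of DHRS7 were 88, 88, 64 and 86 with DMSO, and 78, 81, 135 and 151 with dTAGV1. Counted irrespective of strand, the log2 fold change of DHRS7 was 0.69, with the same call.

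DHRS7B (ENSG00000109016, chromosome 17, 21123364 to 21193265, plus strand) was measured at 8.74, 15.2, 13.1 and 13.1 CPM with DMSO, and at 11.3, 8.16, 16.8 and 18.2 CPM with dTAGV1. Here the groups overlapped, with a log2 fold change of 0.13 ± 0.22 (SE) (edgeR, Benjamini-Hochberg adjusted p = 0.636). DHRS12 (ENSG00000102796, chromosome 13, 51767993 to 51804157, minus strand) has no settled substrate. It was measured at 3.55, 4.10, 4.00 and 4.45 CPM with DMSO, and at 1.70, 3.62, 3.54 and 2.13 CPM with dTAGV1. Groups overlapped by the narrow margin between 3.55 and 3.62 CPM, and the log2 fold change was -0.57 ± 0.32 (SE) (edgeR, Benjamini-Hochberg adjusted p = 0.127). DHRS12 would not have passed the filter on low counts on its dTAGV1 libraries alone. Its test is therefore no independent evidence on a difference. An unnamed protein-coding gene overlaps DHRS12 on the same strand, and 6.17% of the 31-base words near the DHRS12 end occur in it, so its value is uncertain.

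The other 5 genes had too few counts for the filter. DHRS13 (ENSG00000167536, chromosome 17, 28897781 to 28903071, minus strand) had 10, 10, 11 and 15 counts with DMSO, and 6, 3, 5 and 1 with dTAGV1. Its groups did not overlap. In a fit without the filter, which called 27.0% of 29925 genes, the log2 fold change of DHRS13 was -1.49 ± 0.48 (SE) (edgeR, Benjamini-Hochberg adjusted p = 0.00853). A noncoding gene lies over its end on the opposite strand, and counts of DHRS13 irrespective of strand were 0 or 1 in every library.

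DHRS9 (ENSG00000073737, chromosome 2, 169064789 to 169096167, plus strand) had 1, 1, 0 and 0 counts with DMSO, and 14, 2, 4 and 7 with dTAGV1. Every dTAGV1 library had more than any DMSO library, and replicate 1 held most of the dTAGV1 counts. The group sums of 2 and 27 counts gave a ratio of 14.6 with an exact 95% interval of 3.66 to 126, which covers counting error only. Without the filter its adjusted p was 0.000123 (edgeR, Benjamini-Hochberg). DHRS9 shares its CpG-poor starts with DHRS2, and any relation of such starts to the direction of change was not tested.

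DHRS4 (ENSG00000157326, chromosome 14, 23953586 to 23969279, plus strand) had 5, 9, 11 and 15 counts with DMSO, and 4, 7, 3 and 3 with dTAGV1, and the groups overlapped. Its adjusted p without the filter was 0.0705 (edgeR, Benjamini-Hochberg), with a log2 fold change of -1.12. Of the 31-base words in its last 500 bases, 80.2% occur in DHRS4L1, DHRS4L2 or a further copy, and the tables count reads that map to several loci apart from genes, so its value is uncertain. DHRS1 (ENSG00000157379, chromosome 14, 24290598 to 24299833, minus strand) had 2, 1, 4 and 1 counts with DMSO and 0, 0, 1 and 3 with dTAGV1. DHRS11 (ENSG00000278535, chromosome 17, 36591798 to 36600806, plus strand) had 0, 2, 0 and 1 counts with DMSO and 1, 2, 0 and 0 with dTAGV1. A difference in DHRS1 or DHRS11 was not detectable at this depth, where 3 counts correspond to 0.710 to 0.906 CPM.

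DHRS2, DHRS4, DHRS1 and DHRS7 lie on chromosome 14. DHRS4 starts 323 kb and DHRS1 660 kb from the start of DHRS2, whereas DHRS7 is far along the chromosome arm. Within 500 kb of either end of DHRS2, 11 of 53 other annotated genes were tested, and 5 differed (edgeR, Benjamini-Hochberg adjusted p under 0.05). Of all tested genes 57.9% differed, so this count does not set the locus apart. The 3 that fell were ZFHX2, a zinc finger homeobox gene, with a log2 fold change of -1.77, BCL2L2, an inhibitor of apoptosis, with -1.20, and SLC7A8, an amino acid transporter, with -0.87. The 2 that rose were PABPN1, the nuclear poly(A) binding protein, with 1.36, and ZFHX2-AS1, with 1.31. ZFHX2-AS1 overlaps ZFHX2 on the opposite strand, and PABPN1 and BCL2L2 share a readthrough gene. Given the filter on low counts, ZFHX2 and SLC7A8 would not have been tested without the DMSO libraries, nor PABPN1 without the dTAGV1 libraries. Each was higher in that group, so the tests of ZFHX2, SLC7A8 and PABPN1 are no independent support for a difference. The 6 that did not pass were SLC22A17, PPP1R3E, AP1G2, NGDN, PSME1 and PSME2, with log2 fold changes of -0.28, -0.40, -0.28, -0.08, -0.18 and 0.55. DHRS2, at -3.55, had a larger fall than any of these neighbours, but it was selected for the size of its fall.

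**Figure D3:**
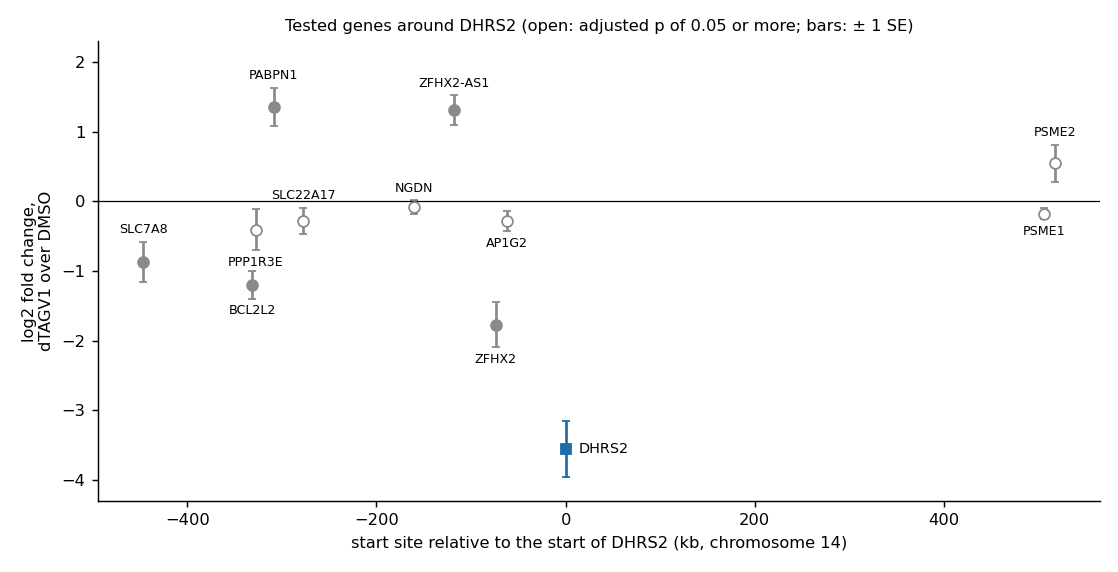
Log2 fold change with dTAGV1 (vertical axis, bars ± 1 standard error) of tested genes around DHRS2, by the distance of their start from that of DHRS2 in kb (horizontal axis). Filled circles passed an adjusted p of 0.05, open circles did not, and the square is DHRS2. Changes of the neighbours went in both directions, from -1.77 for ZFHX2 to 1.36 for PABPN1.

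Beyond the 10 genes, 64 further genes of the superfamily, or named after a member, were read from the same fit. They were 6 other DHRS or DHRS-like genes, of which DHRS4-AS1 is an antisense transcript, and 58 others. Of the 64, 37 were tested, and 9 rose while 13 fell. Together 59.5% of them were called, near the 57.9% of all genes, and their median log2 fold change was -0.14 where that of all tested genes was 0.01. Among the 6 DHRS-like genes, BDH2 alone was tested. This enzyme, also known as DHRS6, rose from 3.59 ± 1.65 to 9.18 ± 2.45 CPM (SD, n = 4 each), which is 1.35 on the log2 scale (edgeR, Benjamini-Hochberg adjusted p = 0.000302). BDH2 overlaps SLC9B2 on the same strand. Its DMSO counts of 7, 14, 22 and 13 would not have passed the filter without the dTAGV1 libraries. The test of BDH2 is therefore no independent support for a difference. DHRS4L2 had 0 to 2 counts in each library, and DHRS4L1, DHRS4-AS1, DHRS7C and DHRSX were listed at 0 throughout. Such a listing need not mean absence, since reads that map to several loci are counted apart from genes.

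Of these 37 genes, RDH12, RDH10 and BDH2 had the largest increases. RDH12, a retinal reductase known from photoreceptors, rose from 1.45 ± 0.626 to 11.5 ± 2.59 CPM, with counts of 2, 7, 6 and 8 against 37, 32, 52 and 44. Its log2 fold change was 2.93 ± 0.31 (SE) (edgeR, Benjamini-Hochberg adjusted p = 1.23e-08). RDH12 passed the filter on low counts only through the dTAGV1 group, so its test is no independent support for a difference. RDH10, which oxidises retinol to retinal, rose from 20.8 ± 2.96 to 64.2 ± 8.19 CPM, or by 1.63 on the log2 scale (edgeR, Benjamini-Hochberg adjusted p = 5.35e-11). HTATIP2, HSD17B4 of peroxisomal fatty acid oxidation, and DECR1 of mitochondrial fatty acid oxidation followed BDH2 with 0.67, 0.62 and 0.52. RDH11, another retinal reductase, did not pass the test, at 0.16.

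Fatty acyl reductases were among the members that fell most. FAR2 fell from 4.99 ± 1.47 to 0.925 ± 0.502 CPM and FAR1 from 68.9 ± 1.77 to 34.5 ± 1.11 CPM (SD, n = 4 each), with adjusted p of 2.01e-05 and 3.26e-09 (edgeR, Benjamini-Hochberg). The log2 fold change of FAR2 was -2.33. FAR2 and PECR passed the filter only through the DMSO group, where they were higher. HSD11B1L would not have passed it on its dTAGV1 libraries alone. The tests of FAR2, PECR and HSD11B1L are thus no independent support for a difference. FAR2 overlaps ERGIC2 on the opposite strand, and counted irrespective of strand its log2 fold change was -0.00040 with no call. PECR, a peroxisomal enoyl-CoA reductase that overlaps MREG on the same strand, had a log2 fold change of -1.62. HSD11B2, which inactivates cortisol, had -1.55, HSD11B1L had -0.89 and overlaps RPL36 on the same strand, and BLVRB, a biliverdin and flavin reductase, had -0.83. The decrease of DHRS2, at -3.55, exceeded that of each of the 37, but DHRS2 was selected for the size of its decrease.

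**Figure D4:**
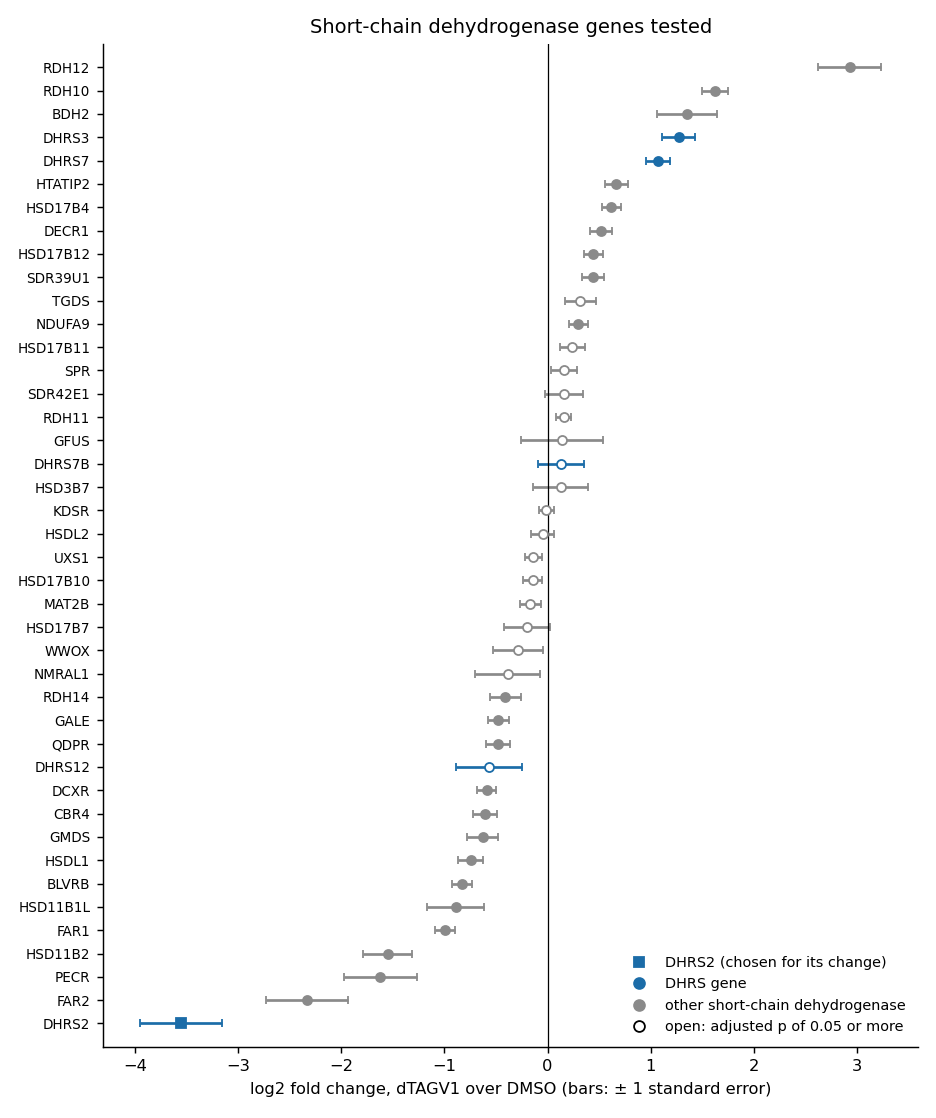
Log2 fold change with dTAGV1 (horizontal axis, bars ± 1 standard error) of the 5 tested DHRS genes (blue) and 37 other short-chain dehydrogenase genes (grey), in order of their value. Filled symbols passed an adjusted p of 0.05, open ones did not, and the square is DHRS2, which was chosen for its change. Values ran from -3.55 for DHRS2 to 2.93 for RDH12.

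Several DHRS products act on retinoids, and 21 genes of retinoid handling were read from the same fit. This list shares RDH10, RDH11, RDH13 and RDH14 with the superfamily genes above. It leaves out the 10 DHRS genes and RDH12, so the rises of DHRS3, DHRS7 and RDH12 and the fall of DHRS2 are not in its counts. Of 10 tested, 2 rose and 4 fell, with a median log2 fold change of -0.08. The share called, 60%, is near the 57.9% of all tested genes, so the counts are no result about these genes as a list. The 2 on this list that rose were RDH10 and ALDH1A3, the enzyme that turns retinal into retinoic acid. ALDH1A3 had counts of 439, 469, 465 and 508 with DMSO against 570, 1120, 948 and 1339 with dTAGV1, a log2 fold change of 1.18 (edgeR, Benjamini-Hochberg adjusted p = 0.00225). As for DHRS2 and DHRS3, its lowest dTAGV1 library was replicate 1. CRABP2, which carries retinoic acid to the nucleus, fell from 223 ± 18.0 to 119 ± 13.1 CPM (SD, n = 4 each), or by 0.91 on the log2 scale (edgeR, Benjamini-Hochberg adjusted p = 1.60e-09). The receptor RARG had -1.02, CYP26B1, which clears retinoic acid, had -0.68, and RDH14 had -0.41, and these also passed. RDH14 lost its call without DMSO replicate 3, DMSO replicate 4 or dTAGV1 replicate 3, with log2 fold changes of -0.39, -0.36 and -0.37. The receptors RARA and RXRA did not, at -0.11 and -0.05. RXRB, RXRG, RARB, RBP4, CRABP1 and STRA6 were listed at 0 in all 8 libraries. Reads that map to several loci are counted apart from genes, so a listing at 0 need not mean that a transcript was absent.

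Of 7 genes that background ties to DHRS2, 4 rose and 3 did not pass the test. The share called, 57.1%, is near the 57.9% of all tested genes. CDKN1A, the kinase inhibitor that arrests the cell cycle, rose from 702 ± 106 to 1430 ± 130 CPM (SD, n = 4 each), which is 1.03 on the log2 scale (edgeR, Benjamini-Hochberg adjusted p = 1.42e-08). MDM2, whose product DHRS2 binds, had a log2 fold change of 0.55, and the deacetylases HDAC8 and HDAC1 had 0.72 and 0.39. MDM4, HDAC2 and HDAC3 had log2 fold changes of -0.01, 0.10 and -0.03. DHRS2 and CDKN1A thus moved in opposite directions between the same libraries. DHRS2 was selected for its decrease, and 29.4% of all tested genes rose, so this is a description only.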

How the data were processed

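The deposited values are whole-number counts of reads per gene in 8 libraries, made with a poly(A)-primed QuantSeq forward kit from Trizol-extracted RNA, per the labels' protocols. GRCh38 and the tools FastQC, fastp, STAR, HTSeq and DESeq2 are named, with no role or version, per the submitters' processing notes. The annotation and any removal of PCR copies are not given in the sources used here, so counting intervals cover counting error only. Each table holds 3 count columns, of which the sense-strand one was taken. The 4 totals of reads given to no gene, 56.7% to 62.8% of reads, stayed out of library sizes and tests.

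Counts were fitted with edgeR 4.0.16 in R 4.3.3 over all genes passing filterByExpr, with TMM scaling, robust quasi-likelihood tests and Benjamini-Hochberg adjustment over the 12618 genes, at a threshold of 0.05. A positive log2 fold change means a higher value with dTAGV1, and the standard error is the absolute log2 fold change divided by the square root of F. CPM of genes that did not pass the filter used the same scaling. A gene name table gave symbols (61481 of 78932 identifiers), and coordinates, counted from 1, from GENCODE 29 on GRCh38 (57356 identifiers), which is not stated to be the annotation the authors used. Deviations and correlations used log2 CPM with a prior count of 2. The fit was tested on simulated counts of 12618 genes with 200 changed. For this comparison 87.5% of 2-fold and 95.8% of 4-fold changes were recovered, with 7 false calls. Simulated spread followed the trend alone, whereas DHRS2 had a biological coefficient of variation of 0.387 against a trend of 0.0803. In the data 57.9% of genes were called, a far larger share than was changed in the simulation. These rates therefore need not hold for the data.

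The members and gene lists were chosen with earlier results of these data known, and 2 list genes are not reported here and were left out of the lists' counts. Named were all 10 members, NUDT21, tested genes within 500 kb of DHRS2, up to 6 called genes per direction of each list by size of change, all genes tied to DHRS2, and the 5 genes closest to DHRS2 by Pearson's r, overall and within groups. Retinoid and DHRS-like genes at 0 or not called, HSDL2, CBR4, NDUFA9 and markers were named after their values were seen. Alternatives were DESeq2 1.42.0, RLE and library-size scaling, other filters, unstranded counts, a replicate block and leaving out each library. The labels do not say that replicates are separate cultures, so p-values measure the spread between these libraries. Python 3.11.15 with matplotlib 3.10.9 drew the figures.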

Additional observations from a re-analysis of the deposited data

Results flagged for a closer look

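Among 164 groups of 4 libraries, for 82 genes described here, 5 held a library far from the other 3 by Dixon's criterion, which chance passes in about 1 of 20 groups. With dTAGV1, RDH12 was 15.3 CPM in replicate 3 against 9.67 to 10.5 in the others. CBR4 was 37.6 CPM in dTAGV1 replicate 4 against 28.7 to 28.9. NDUFA9 was 93.0 CPM in dTAGV1 replicate 2 against 79.8 to 80.9. In DMSO replicate 1, HSDL2 was 44.5 CPM against 62.6 to 64.3, and HDAC8 was 18.6 CPM against 23.6 to 24.5. No DHRS gene passed the criterion in either group.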

How the results depend on the processing

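DHRS2 kept its direction in all 15 alternatives, with log2 fold changes from -3.88 to -3.31, both ends coming from leaving out 1 library (dTAGV1 replicate 4 or 1). DHRS3 and DHRS7 kept their calls in all 15. Requiring a mean of 100 counts, with 6369 genes tested, left 4120 genes called, 14 of 22 superfamily genes and 3 of 5 retinoid genes. Without a filter, 4 of the 9 other DHRS genes were called, since DHRS9 and DHRS13 were then tested. That fit called 27.0% of 29925 genes. DHRS13 was also tested, and called lower, without DMSO replicate 2 or any 1 of the dTAGV1 libraries. In those fits DHRS13 passed the filter only through the DMSO libraries, where it was higher. These calls are therefore no independent support for a difference. Library-size scaling called 7275 genes, 3186 higher and 4089 lower, against 3710 and 3592 with TMM, so the balance of directions depends on the scaling. Replicate numbers are shared between the groups, but deviations of equal numbers correlated across genes at only 0.13, -0.018, 0.023 and 0.034, so the numbers were not taken to pair the libraries. With a replicate block, 7434 genes were called, DHRS2 stood at -3.59 ± 0.28 (SE), and DHRS3 and DHRS7 were again the 2 of 4 called. Of the alternative values for 66 single genes, 939 kept their call, 6 lost it and 13 gained it; those that lost it were RDH14 (3 times), NDUFA9, FAR2 and SLC7A8.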
